A study of Mus musculus with 2 samples.

Results

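The genes described here encode the ATP-driven pumps that move sodium and potassium, calcium, and protons across membranes. They were chosen by symbol: Atp1a and Atp1b (Na,K-ATPase), Atp2a, Atp2b and Atp2c (calcium pumps), and Atp6v and Atp6ap (vacuolar proton pump), each with at least 1 protein-coding transcript. Of 55536 annotated genes, 43 met this rule. A further 2 symbols of 45 that matched were processed pseudogenes and were left out.

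The RNA was polyadenylated RNA of mouse hippocampus, the brain region of memory formation. The animals were adults of 6 months, given as C57BL/6 and as strain B6NCrl. There was 1 group of 2 libraries, replicate 1 and replicate 2, each made from 20 ng of RNA by Nextera tagmentation, with no treatment or altered allele named and no second condition. The replicates carry separate tissue sample identifiers and 1 shared donor identifier, so the spread between them may be partly technical, and whether they came from separate animals is not given in the sources used here. The description calls the tissue male while the sex field was not filled in.

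Reads assigned to genes summed to 38921662 in replicate 1 and 39499350.26 in replicate 2. All 7 markers of pyramidal and granule neurons reached 1 TPM (the relative number of a gene's transcripts, a level corrected for transcript length and depth) in both libraries, as did all 5 markers each of interneurons, astrocytes, oligodendrocytes and microglia. The libraries stood apart in choroid plexus epithelium, the tissue that secretes cerebrospinal fluid. All 9 of its markers were higher in replicate 1, by a median log2 ratio of 4.44, with a summed level of 15280 TPM in replicate 1 and 136 TPM in replicate 2. None of the 9 was at 0 in either library. Ependymal markers had a median log2 ratio of 0.47, with 2 of 5 at 0.5 or more. With 1 group, no test between conditions was possible and no p-values are given. Values are described with their spread over the 2 libraries.

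The sodium pump is an alpha subunit, which splits ATP, held with a beta subunit that folds and places it. In neurons it restores the ion gradients spent by action potentials and synaptic currents. Calcium is cleared by plasma membrane pumps (PMCA), by pumps of the endoplasmic reticulum (SERCA) and by pumps of the Golgi (SPCA). The V-ATPase couples a cytosolic V1 sector, which splits ATP, to a membrane V0 sector that passes protons. It acidifies lysosomes and endosomes, and at synapses it makes the gradient that loads vesicles with transmitter.

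The pump genes stood high among the genes of this tissue. Of the 43 members, 32 (74.4%) reached 1 TPM in both libraries, against 56.7% of 22028 protein-coding genes. The median level was 94.6 TPM over the members and 2.59 TPM over protein-coding genes. The members took 1.06% of all TPM in replicate 1 and 1.09% in replicate 2, and 17 of them were among the 1000 genes of highest level. The V0 genes held 33.4% ± 0.140 of the members' TPM and the V1 genes 31.3% ± 0.698 (SD, n = 2). Sodium pump beta genes held 13.0% ± 0.274 and alpha genes 11.9% ± 0.590. PMCA genes held 6.44% ± 0.232, accessory V-ATPase genes 3.12% ± 0.173, SPCA genes 0.526% ± 0.0668 and SERCA genes 0.425% ± 0.0191. By expected reads, which are not corrected for length, the order differs: 26.7% lay in V1 genes, 22.6% in alpha genes and 20.6% in V0 genes.

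**Figure D1:**
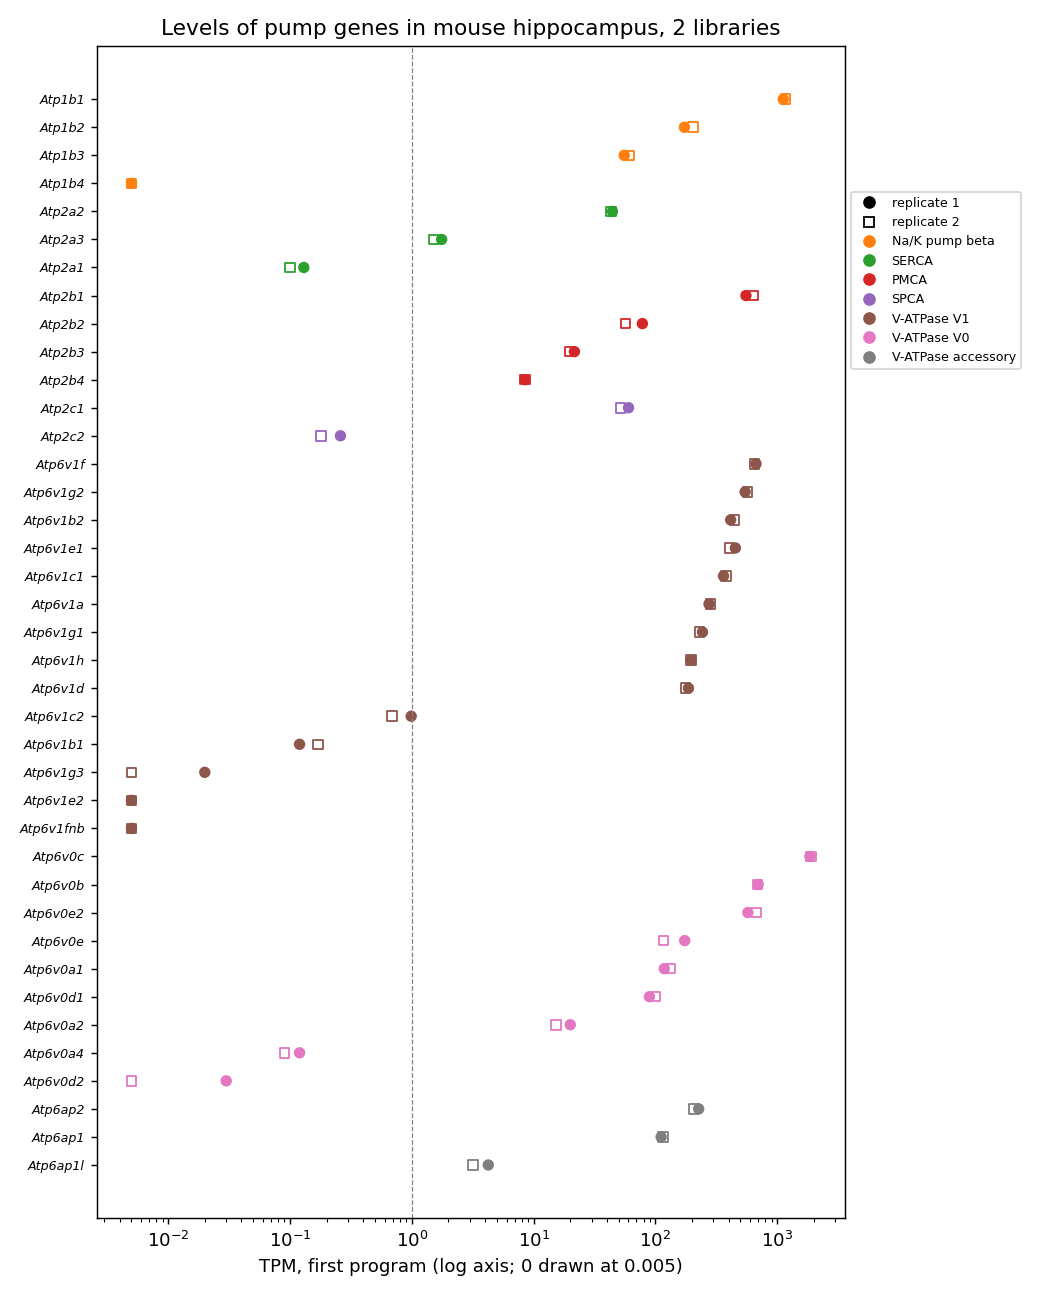
Level of the beta subunit, calcium pump and V-ATPase genes in TPM (log axis), with filled circles for replicate 1 and open squares for replicate 2, coloured by pump class and sorted by mean level within a class; a value of 0 is drawn at 0.005 and the dashed line marks 1 TPM. Atp6v0c is the highest, at 1857 TPM in replicate 1 and 1892 TPM in replicate 2, and the libraries lie close together for most genes above 1 TPM.

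Among the sodium pump genes, Atp1a4, the alpha subunit of sperm, had 0 reads in both libraries in the first quantification program. A count of 0 allows up to 3 reads, or a CPM (reads scaled to library size) of 0.0767 in replicate 1 and 0.0763 in replicate 2. Such limits cover counting error only. The second program assigned Atp1a4 6.02 reads in replicate 1 and 7.02 in replicate 2. Atp1b1 (chromosome 1, 164437109 to 164458355), the most abundant beta subunit gene here, had 1123 TPM in replicate 1 and 1169 TPM in replicate 2, which was 82.3% ± 1.08 of the beta TPM. Atp1b2, also known as an adhesion molecule on glia, had 173.3 and 203.4 TPM. Atp1b3 had 55.5 and 61.2 TPM, and Atp1b4, which in placental mammals is no longer a pump subunit but a muscle protein of the nuclear membrane, had 0 reads in both. Exons of Nme7 overlap 575 of the 3081 exon bases of Atp1b1 on the other strand, and whether reads were counted by strand is not given in the sources used here. Nme7 had 788 and 694 reads, against 82549 and 88060 for Atp1b1 in replicates 1 and 2.

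Calcium pump transcripts were mostly of the plasma membrane class. The summed TPM of the PMCA genes was 15.2 ± 1.23 times that of the SERCA genes. By expected reads the ratio was 7.28 ± 0.191, and by reads per kilobase of the longest complete coding transcript 5.51 ± 0.0967, so its size depends on the length correction. Atp2a2, the SERCA gene of most tissues, had 44.5 TPM in replicate 1 and 43.1 TPM in replicate 2, which was 96.2% ± 0.324 of its class. Atp2a3, the SERCA gene of blood cells and some epithelia, had 1.76 and 1.52 TPM. Atp2a1, that of fast skeletal muscle, had 0.13 and 0.10 TPM from 5 and 8.32 reads. Of 5 muscle markers, 2 reached 1 TPM in both libraries. Atp2c1, the Golgi pump for calcium and manganese, had 60.2 and 51.8 TPM, while its epithelial relative Atp2c2 had 0.260 and 0.180 TPM. Exons of Aste1 on the other strand overlap 1837 of the 9694 exon bases of Atp2c1.

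Among the PMCA genes, Atp2b1 (chromosome 10, 98914406 to 99026143), the form found in nearly all cells, had 554.5 TPM in replicate 1 and 633 TPM in replicate 2. Atp2b2, the form of neurons and hair cells, had 78.2 and 56.7 TPM. Atp2b3, a form largely of brain, had 21.7 and 19.95 TPM, and Atp2b4 had 8.5 TPM in both. No neighbours in this order overlapped between libraries. Its steps depend on the transcript model. Of the Atp2b1 TPM, 90.0% ± 2.43 was assigned to transcripts whose annotated coding sequence is incomplete, mainly Atp2b1-208 and Atp2b1-207. These are 1588 and 1249 bases long and start near the gene's 5' end, and the complete transcript Atp2b1-201 has 7130 bases. Atp2b1-208 had 14136 and 17867 expected reads in replicates 1 and 2, Atp2b1-207 had 4884 and 5782, and Atp2b1-201 had 13747 and 11272. TPM divides each by its length. By TPM, Atp2b1 exceeded Atp2b2 by 7.09-fold in replicate 1 and 11.2-fold in replicate 2. By expected reads the ratio was 1.92 and 2.70, and by reads per kilobase of the longest complete coding transcript 2.38 and 3.36. On each of the 3 scales Atp2b1 was the highest of the 4 genes, with 85.9%, 63.2% and 65.9% of the class.

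**Figure D2:**
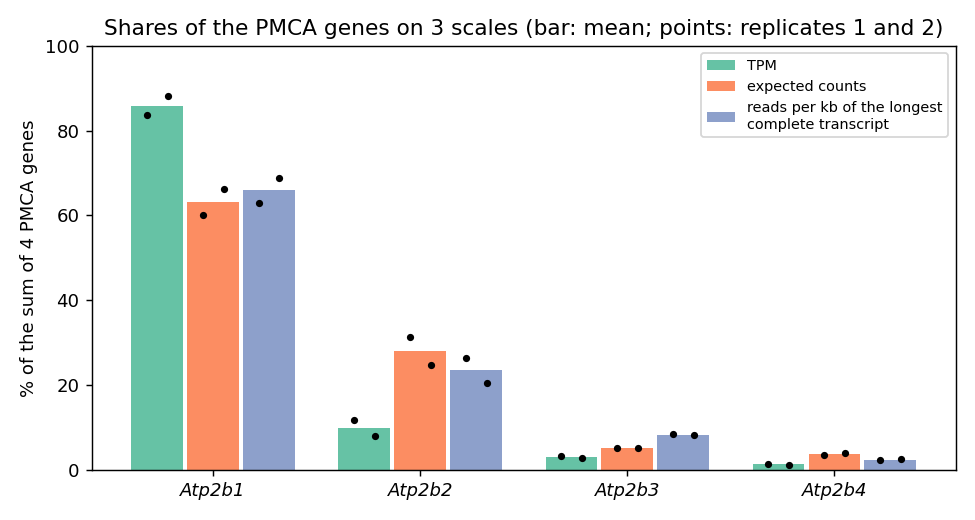
Share of each PMCA gene in the sum of the 4 PMCA genes, in TPM, in expected counts and in reads per kilobase of the longest complete coding transcript; bars are means of 2 libraries and points are replicate 1 (left) and replicate 2 (right). Atp2b1 leads on each scale, with 85.9% of TPM but 63.2% of counts, and Atp2b2 holds 27.96% of counts.

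V-ATPase transcripts came from genes of every subunit that the symbol rule covers. Some of these subunits have a single member gene by that rule, and those with alternative genes are compared below. In the V0 sector, Atp6v0c (chromosome 17, 24163866 to 24169702), the proteolipid of the proton-carrying ring, was the highest of all 43 members, at 1857 TPM in replicate 1 and 1892 TPM in replicate 2. It was the only member among the 100 genes of highest level. Its processed pseudogene Atp6v0c-ps2 was assigned 138 and 120 reads, against 58198.5 and 60957 for Atp6v0c, so its count is uncertain by the reads that gene and copy may share. The other ring subunit, Atp6v0b, had 699 and 687 TPM. Atp6v0e2 and Atp6v0e, alternative genes of the small e subunit, had 575 and 669 TPM and 174.2 and 117.0 TPM. Atp6v0a1, the a subunit of synaptic vesicles that forms the proton path with the ring, had 118.4 and 133.3 TPM. Atp6v0d1, which links the ring to the central stalk, had 89.4 and 99.9 TPM, and Atp6v0a2, the a subunit of the Golgi, had 20.0 and 15.4 TPM.

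In the V1 sector 9 members lay between 176 and 671 TPM in each library. The stalk subunit Atp6v1f led, at 671 TPM in replicate 1 and 652 TPM in replicate 2. It was followed by Atp6v1g2, the G subunit known from neurons, at 546 and 569.9 TPM, and by Atp6v1b2, a B subunit of the catalytic head, at 415 and 446 TPM. Atp6v1e1 of the outer stalk had 454 and 407 TPM and Atp6v1c1, a subunit that joins head and membrane parts, 363 and 380.4 TPM. The ATP-splitting A subunit Atp6v1a had 276 and 284 TPM, Atp6v1g1 244 and 230.4 TPM, the regulatory H subunit Atp6v1h 196 TPM in both, and the central stalk subunit Atp6v1d 187 and 176 TPM. In the first program, neighbours in this order overlapped between libraries for Atp6v1b2 and Atp6v1e1 alone, and in V0 for Atp6v0e and Atp6v0a1. The second program gave Atp6v1f 544 and 509 TPM and Atp6v1g2 488 and 536 TPM, so there the 2 leading genes overlapped. The leading gene also depends on the length correction: by reads per kilobase of the longest complete transcript Atp6v1g2 led, with 17.8% of V1, and by expected reads Atp6v1b2, with 20.97%. The summed V1 genes had 0.937 ± 0.017 times the TPM of the V0 genes, but 1.02 ± 0.00313 times by the TPM of the second program and 1.29 ± 0.0265 times by expected reads, so no order of the sectors holds on every scale. That is not a count of complexes, since one complex holds several copies of some subunits.

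Where a subunit has alternative genes, 1 gene took over 99% of the TPM for B (Atp6v1b2), C (Atp6v1c1), d (Atp6v0d1) and E (Atp6v1e1). The other genes of these subunits and the third genes of subunits a and G, known mainly from kidney and other acid-secreting epithelia, bone or testis, were near 0. Atp6v1b1 had 0.120 TPM in replicate 1 and 0.170 TPM in replicate 2, Atp6v1c2 0.990 and 0.690 TPM, Atp6v0a4 0.120 and 0.0900 TPM, Atp6v0d2 2 reads and 0 reads, Atp6v1g3 1 read and 0 reads, and Atp6v1e2 0 reads in both. For 3 subunits a second gene contributed. Atp6v0a1 held 87.5% ± 2.93 and Atp6v0a2 12.4% ± 2.91 of the a subunit, Atp6v0e2 80.9% ± 5.92 and Atp6v0e 19.1% ± 5.92 of e (8.89% ± 3.11 by expected reads), and Atp6v1g2 70.2% ± 1.48 and Atp6v1g1 29.8% ± 1.47 of G. Tcirg1, a further a subunit gene, known from osteoclasts, which the symbol rule does not take, had 3.46 and 3.12 TPM. Atp6v1fnb, named as a neighbour of Atp6v1f and in the V1 class by its symbol alone, had 0 reads in both libraries.

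**Figure D3:**
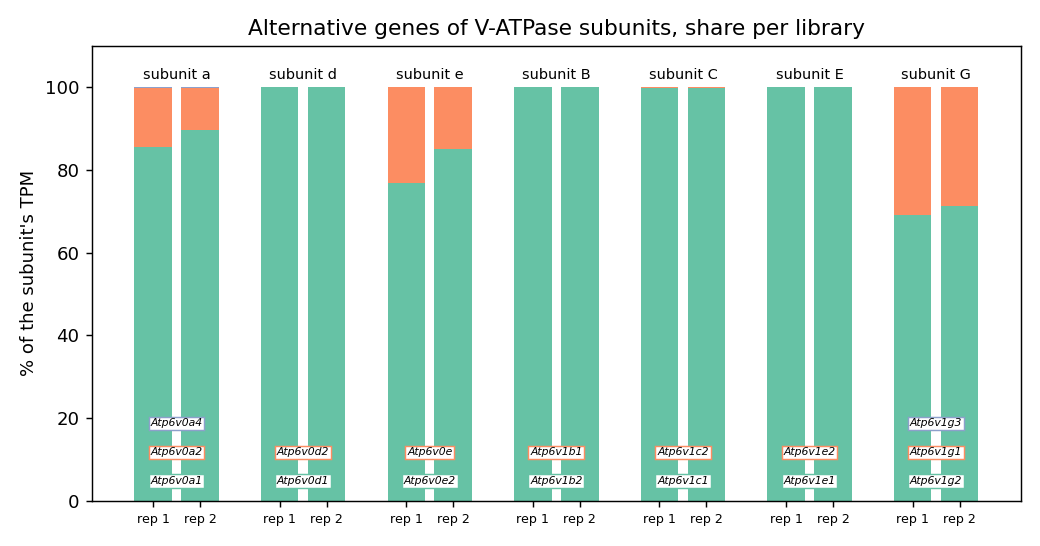
Share of each alternative gene in the summed TPM of its V-ATPase subunit, as stacked bars for replicate 1 and replicate 2, with gene labels framed in the colour of their segment. Subunits B, C, d and E come from 1 gene at over 99%, while a, e and G have a second gene at 12.4%, 19.1% and 29.8% on average.

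Of the accessory genes, Atp6ap2, also known as the prorenin receptor, had 227 TPM in replicate 1 and 208 TPM in replicate 2. Atp6ap1, the Ac45 subunit of V0, had 111.6 and 115.1 TPM. Atp6ap1l, a relative of Atp6ap1, had 4.25 and 3.20 TPM.

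Between the libraries the pump genes differed little. Of 34 members with a mean of at least 10 reads, 0 differed 2-fold or more, where 5.27% of 17300 genes with that mean did. At an absolute log2 ratio of 0.5 or more, 3 were higher in replicate 1, beside 10.7% of these genes, and 0 were lower, beside 6.56% (17.3% in either direction). Among deeply read genes both shares were lower: of 30 members with a mean of at least 1000 reads, 0 differed 2-fold, beside 0.826% of 6171 such genes. An absolute log2 ratio of 0.5 was passed by 2 of the 30 (6.67%), beside 4.67% of such genes, and both were higher in replicate 1, beside 3.73%. These shares are near each other. The median log2 ratio of the members was -0.02, beside 0.00 over all genes with at least 10 reads.

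The 3 members past 0.5 were Atp6v0e, Atp6v0a2 and Atp6v1c2. Atp6v0e had 3561 reads in replicate 1 and 2444 reads in replicate 2, a log2 ratio of 0.55 with a 95% Clopper-Pearson interval of 0.48 to 0.63. Such intervals cover counting error only. Atp6v0a2 had 2624 and 1851 reads, a log2 ratio of 0.51 (0.42 to 0.60), and was not past 0.5 by TPM, by FPKM or in the second program. Atp6v1c2 had 39 and 24 reads, and its interval of -0.06 to 1.51 around 0.70 spans 0. Next came Atp2c2, at 0.49 from 24 and 17 reads, and Atp2b2, at 0.42 (0.39 to 0.45) from 17551 and 13171 reads. At the low end lay Atp1b2, at -0.31 (-0.35 to -0.28) from 11566 and 14447 reads, and Atp6v0e2, at -0.25 (-0.27 to -0.22) from 28563 and 34068. The e subunit genes thus stood on opposite sides of 0. Choroid plexus markers stood higher in the same library as Atp6v0e, Atp6v0a2 and Atp2b2 (15280 and 136 TPM summed over 9 markers), and their part in these differences was not tested. In bulk tissue, fewer cells of a type and less RNA per cell cannot be told apart.

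By class the medians of the log2 ratio lay between -0.16 for the beta genes and 0.36 for the 2 SPCA genes. All 3 measured beta genes were lower in replicate 1, at -0.09 for Atp1b1, -0.16 for Atp1b3 and -0.31 for Atp1b2. Of all genes with a mean of at least 1000 reads, as these have, only 45.3% had a ratio above 0. A shared direction in 3 genes is thus no particular trait of the class. Pyramidal and granule neuron markers had a median of -0.18 and astrocyte markers one of 0.24, and the part of cell makeup in the ratios of the pump genes was not tested. The V1 genes had a median of -0.02, the V0 genes -0.06, SERCA 0.10, PMCA 0.00 and the accessory genes 0.10.

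**Figure D4:**
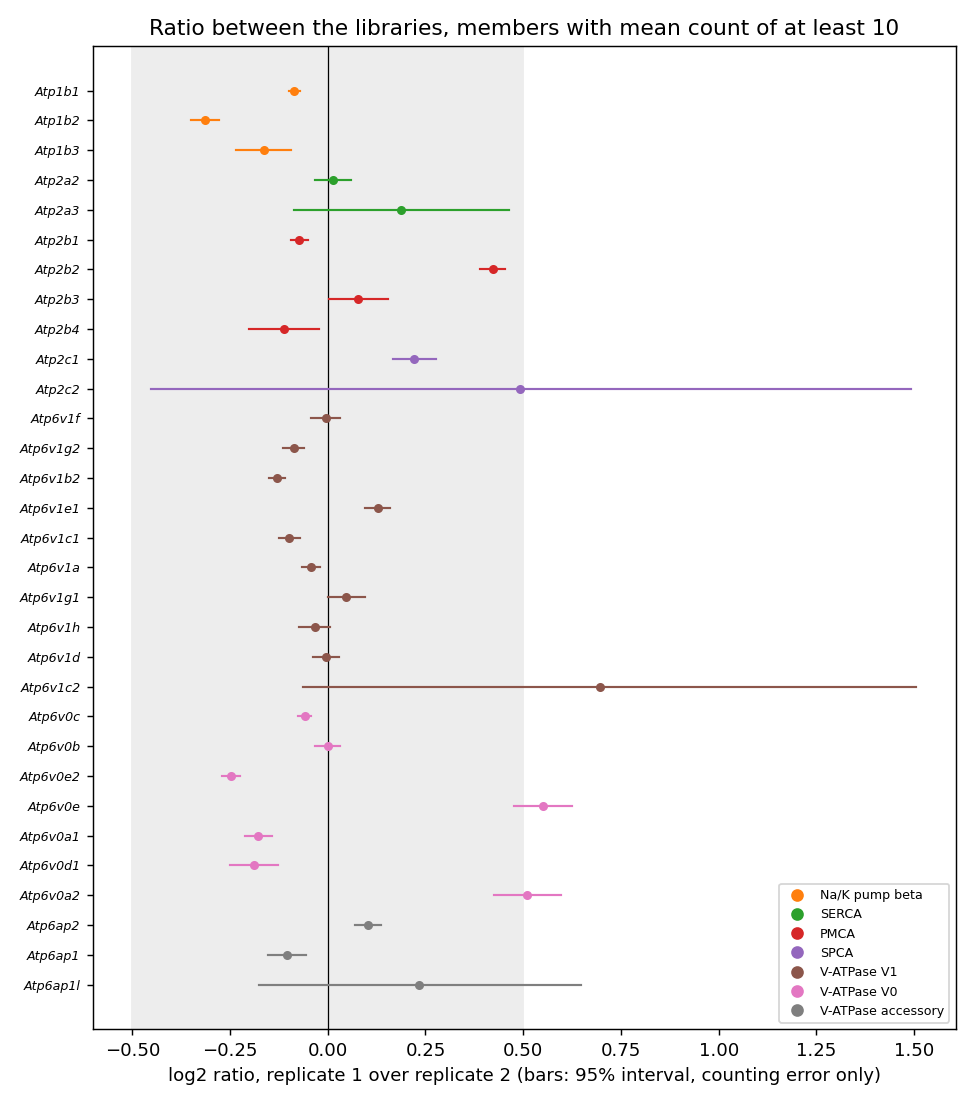
Log2 ratio of scaled reads in replicate 1 over replicate 2 for beta subunit, calcium pump and V-ATPase genes with a mean of at least 10 reads, by pump class; horizontal lines are 95% intervals for counting error only and the grey band spans -0.5 to 0.5. Atp6v0e, Atp6v0a2 and Atp6v1c2 lie right of the band, and none lies left of it.

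The quantification programs gave like levels for these genes. Of 32 members at 1 TPM or more, 0 differed 2-fold between the first and the second program the same way in both libraries, where 7.56% of 14690 genes did. Those genes were not matched to the members for level. Among genes at 1 TPM or more in both libraries, the median was 185 TPM over members and 13.2 TPM over protein-coding genes. The median log2 ratio of the first over the second program was 0.25 in replicate 1 and 0.29 in replicate 2 over the members. Over all genes it was 0.21 and 0.26, so the shift is common to the tables. The lowest member was Atp2b4, at -0.06 and -0.13, and the highest Atp6v0b, at 0.43 and 0.49. Of 31 members with several transcripts, 0 had a different leading transcript in the other program in both libraries (5.13% of 11627 genes did), and 0 had a different one in the other library (10.1% did). No share over genes of like level was computed for these counts, so they do not set the members apart from other highly expressed genes.

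The transcripts of the members were then grouped by the protein they encode in the annotation. Over all members, 90.4% ± 0.561 of TPM lay in transcripts with a complete coding sequence, 5.86% ± 0.499 in transcripts with an incomplete one and 3.79% ± 0.0624 in transcripts with none. In the first program the mean share that was complete was at least 92.8% in the V1, V0, SERCA, alpha, beta and accessory classes. In PMCA 22.4% ± 4.84 was complete, owing to Atp2b1, and in SPCA 51.0% ± 0.123, owing to Atp2c1. In the second program the complete share of the beta class was lower, at 88.5% ± 1.88.

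SERCA2 has a longer form with an added membrane span at its C-terminal end, known from most tissues, and a shorter form known from heart and slow muscle. Of the Atp2a2 TPM, 93.2% in replicate 1 and 95.1% in replicate 2 encoded the longer form of 1044 amino acids, and 6.50% and 4.57% the shorter form of 998. The second program gave the shorter form 1.81% ± 0.240. The leading transcript, Atp2a2-203, is typed as subject to nonsense-mediated decay in the annotation, although it holds the same coding sequence as the protein-coding Atp2a2-201. If only transcripts typed as protein-coding are kept, the shorter form takes 98.4%. The coding bases that tell the forms apart are shown because the isoform rests on them. They lie on the minus strand of chr5:122457154-122457302 and chr5:122454294-122454304 in mm10, for the longer and the shorter form.
Atp2a2 longer form: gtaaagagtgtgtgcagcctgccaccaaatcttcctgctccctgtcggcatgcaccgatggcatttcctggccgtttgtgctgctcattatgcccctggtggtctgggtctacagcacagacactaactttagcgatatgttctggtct
Atp2a2 shorter form: caatactggag

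PMCA genes are spliced at site C near the calmodulin-binding end: reading in an extra exon gives the tail named a, and leaving it out gives the tail named b. The shares of the tails were not alike across the genes. In Atp2b1 the complete transcript is the b form of 1220 amino acids, and Atp2b1-210, an incomplete transcript with the exon, had 3.06% of the gene's TPM in replicate 1 and 2.01% in replicate 2. Most of that TPM is in transcripts that end before the exon. The transcripts that span the exon held 15.4% and 10.5% of the gene's TPM, and of these 24.2% and 21.6% contained the exon or part of it (21.6% and 20.5% in the second program). In Atp2b2 the form of 1198 amino acids, without the exon, held 93.4% and 92.6%, and the form of 1154 with it held 5.42% and 5.62%. The second program gave the 1154 form 9.43% and 9.70%, and its transcript, Atp2b2-206, is typed as subject to nonsense-mediated decay. In Atp2b3 the balance was the reverse: 77.9% and 86.1% encoded the form of 1173 amino acids with the exon, and 12.3% and 10.8% the form of 1220 without it. In Atp2b4 the form of 1166 amino acids, with the exon, held 62.6% and 55.6%. The Atp2b4 form of 1205, without the exon, held 17.5% and 23.4% in the first program but 4.001% and 3.34% in the second.

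Site C exons of Atp2b1 (chr10:99019278-99019431, plus strand, mm10) and Atp2b3 (chrX:73559864-73560017, plus strand, mm10) are shown for comparison, as the share of spanning transcripts with the exon or part of it was 24.2% and 21.6% in Atp2b1 and 86.4% and 88.8% in Atp2b3. Both have 154 bases, which is not a whole number of codons and so shifts the reading frame. Capitals mark the 98 positions, or 63.6%, at which the bases are identical when the exons are set side by side without gaps.
Atp2b1 site C exon: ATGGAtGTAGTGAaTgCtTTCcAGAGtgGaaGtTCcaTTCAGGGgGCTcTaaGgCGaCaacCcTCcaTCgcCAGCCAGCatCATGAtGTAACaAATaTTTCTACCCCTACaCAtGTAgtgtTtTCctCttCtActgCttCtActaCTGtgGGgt
Atp2b3 site C exon: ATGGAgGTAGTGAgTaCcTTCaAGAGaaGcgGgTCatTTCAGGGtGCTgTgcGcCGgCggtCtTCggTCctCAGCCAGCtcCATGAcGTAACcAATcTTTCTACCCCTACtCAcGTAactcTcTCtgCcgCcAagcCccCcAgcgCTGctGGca
The matching exon of Atp2b2 has 172 bases and that of Atp2b4 has 186 coding bases.

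**Figure D5:**
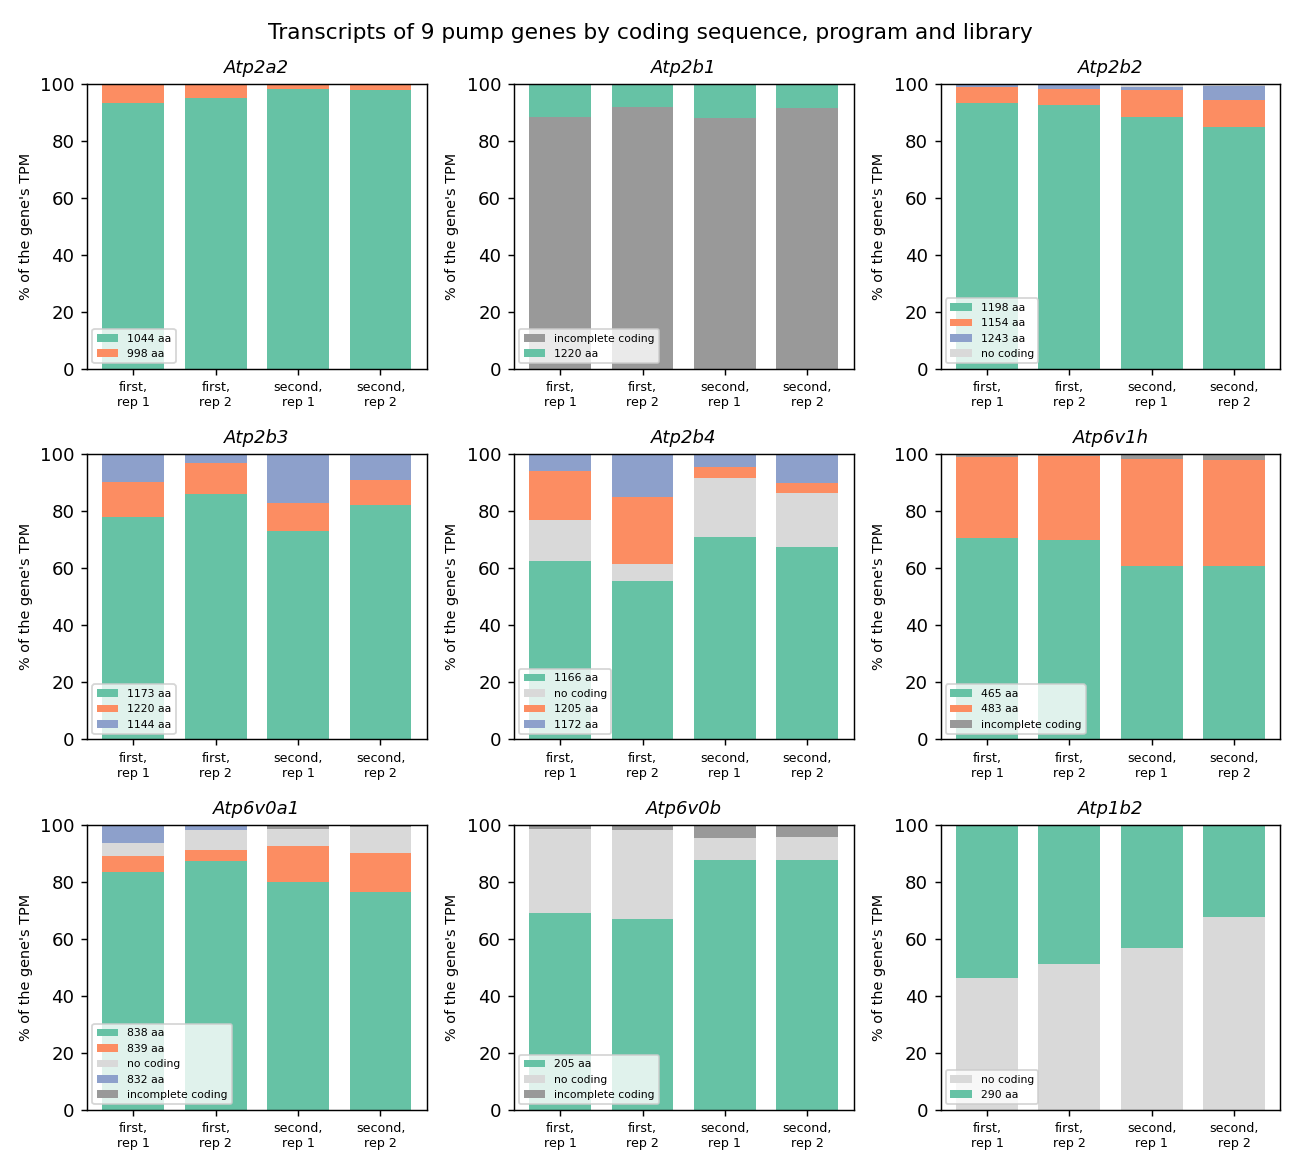
Share of the TPM of 9 pump genes by the protein their transcripts encode (aa, amino acids), for the first program in replicates 1 and 2 and the second program in replicates 1 and 2; dark grey is incomplete coding sequence, light grey no coding sequence, and products under 1% in every bar are left out. Atp2b1 is mostly incomplete (90.0% in the first program), Atp2b3 mostly the form of 1173 amino acids, and the share of Atp6v0b without a coding sequence is 30.3% by the first program, against 7.69% by the second.

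Among the other pumps, most members had a single main product. Atp1b1, Atp1b3, Atp6v0c, Atp6v0d1, Atp6v1b2, Atp6v1f and Atp6ap2 each had 1 product at 99% or more in the first program. Atp6v1g1 has a single transcript in the annotation, so its share is fixed. Of the Atp1b2 TPM, 46.2% and 51.0% lay in transcripts without a coding sequence in the first program, and 56.7% and 67.5% in the second. In Atp6v1d it was 35.2% and 31.1% in the first program, and 39.7% and 41.1% in the second. In Atp6v0b it was 29.4% and 31.3%, but 7.57% and 7.82% in the second program. These shares thus depend on the program.

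The H subunit gene Atp6v1h was spliced in 2 main ways with a small spread. The form of 465 amino acids held 70.4% in replicate 1 and 69.9% in replicate 2, and the form of 483, which reads in 1 more exon, held 28.5% and 29.5%. The second program gave the longer form 37.4% and 36.9%. The added exon has 54 bases, on the plus strand of chr1:5101070-5101123 in mm10, and keeps the reading frame.
Atp6v1h added exon: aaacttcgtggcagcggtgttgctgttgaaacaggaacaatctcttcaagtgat

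Atp6v0a1 mostly encoded a form of 838 amino acids, at 83.4% in replicate 1 and 87.4% in replicate 2. A form of 839 held 5.67% and 3.81% in the first program and 12.5% and 13.8% in the second. A form of 832 held 6.40% and 2.03% in the first program and 0% in both libraries in the second. The 838 form has an exon of 18 bases (chr11:101049459-101049476, plus strand, mm10) that the 839 form lacks, and the 839 form has one of 21 bases (chr11:101026660-101026680) that the 838 form lacks.
Atp6v0a1 exon of the 838 form: cctaccgaggacgaagtg
Atp6v0a1 exon of the 839 form: gctgaattgcatcatcagcag

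Genes that work with the pumps were measured as lists. Their counts past 0.5 stand beside 10.7% of all genes with a mean of at least 10 reads that were that much higher in replicate 1. Their counts at 1 TPM stand beside 56.7% of protein-coding genes that reached it in both libraries. Of 11 Na,K-ATPase regulators, 8 reached 1 TPM in both libraries. Fxyd1, phospholemman, had 427 TPM in replicate 1 and 177.4 TPM in replicate 2, Fxyd7 139.4 and 162.3 TPM, and Nkain4 128.9 and 127.1 TPM. The lowest was Fxyd4, with 0.570 and 0.210 TPM. Of 10 tested, 2 were higher in replicate 1 by a log2 ratio of 0.5 or more, Fxyd1 at 0.82 and Fxyd3 at 2.04, and 0 were lower. For the SERCA regulators, 3 of 4 reached 1 TPM, with Tmx1 at 26.1 and 18.7 TPM, Sln at 6.52 and 5.61 TPM and Mrln at 1.35 and 1.17 TPM. Pln, phospholamban, the inhibitor of SERCA2 in heart, had 0.120 and 0.0900 TPM. The PMCA partners Bsg (1462 and 1061 TPM) and Nptn (234 and 199 TPM) both passed 1 TPM.

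Sodium-calcium exchangers, which clear calcium without ATP, reached 1 TPM in 7 of 9. They were led by Slc24a2 at 63.4 and 79.1 TPM, Slc8a1 at 20.9 and 25.3 TPM and Slc8a2 at 21.1 and 21.7 TPM, and Slc24a1 was lowest at 0.0800 and 0.0400 TPM. Of 8 tested, 1 was past 0.5, Slc24a5 at 3.76, with 401 reads in replicate 1 and 29.3 in replicate 2. Calcium release channels, which return the calcium that SERCA stores, reached 1 TPM in 5 of 6, led by Itpr1 at 18.8 and 15.1 TPM, Ryr2 at 6.35 and 8.09 TPM and Itpr2 at 5.0 and 5.72 TPM, with Itpr3 lowest at 0.200 and 0.180 TPM. None of these 6 passed 0.5.

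Genes listed as V-ATPase assembly and associated factors reached 1 TPM in 11 of 12. Rnasek had 734 TPM in replicate 1 and 749 TPM in replicate 2, Rogdi 229.99 and 246 TPM and Wdr7 65.3 and 68.4 TPM, and Tldc2 had 0 reads and 1 read. None of 11 tested passed 0.5. Chloride exchangers of acid organelles reached 1 TPM in 5 of 6, with Clcn4 at 114.2 and 133.5 TPM, Clcn3 at 39.1 and 40.1 TPM and Ostm1, the partner of Clcn7, at 39.5 and 36.8 TPM. Clcn5 was the lowest, at 1.18 and 0.950 TPM, and the only one past 0.5, at 0.54. Vesicular transporters, which spend the proton gradient, reached 1 TPM in 4 of 8: Slc17a7 for glutamate at 41.7 and 54.4 TPM, Slc32a1 for GABA and glycine at 7.15 and 7.21 TPM, Slc17a6 at 4.26 and 5.51 TPM and Slc18a2 for monoamines at 5.13 and 2.28 TPM. Slc17a9 was lowest, at 0.140 and 0.0300 TPM. Of 6 tested, 3 were past 0.5 and higher in replicate 1, Slc18a2 at 1.14, Slc18a3 at 0.91 and Slc17a8 at 0.64. The intervals of Slc18a3 (-0.18 to 2.14, from 21 and 11 reads) and Slc17a8 (-0.31 to 1.65, from 25 and 16 reads) span 0.

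Other pumps of the P-type family reached 1 TPM in 6 of 10. Atp13a2, a polyamine pump of lysosomes, had 34.7 and 38.6 TPM, Atp13a1 13.4 and 15.4 TPM and Atp13a4 4.29 and 2.84 TPM, and the gastric Atp4b had 0 reads in both. Of 8 tested, 2 were past 0.5, the copper pumps Atp7a at 0.89 and Atp7b at 0.55. The choroid plexus markers moved in the same direction as Fxyd1, Slc24a5, Slc18a2 and Atp7a (15280 and 136 TPM summed), and their part in these differences was not tested.

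Promoters of 29 of the 43 members were found, as 37 entries of 300 bases that run from 250 bases before the start site to 50 after it (RefSeq, GRCm38.p6). The E-box CACGTG, searched on both strands, was in 6 of 37 entries (16.2%), where 7.15% of 32851 promoters of that length hold it. Its 7-letter form TCACGTG, part of the CLEAR element of lysosomal genes and overlapping the E-box, was in 5 (13.5%), where 3.77% of all promoters hold it. The entries belong to Atp6v0b, Atp6v1a, Atp6v0e, Atp6v0d1, Atp2b1 and, for the E-box alone, Atp1b3. Atp6v0b holds the motif at 2 places, 36 and 18 bases before its start. Its window is shown with the motifs in capitals (chr4:117887330-117887382, minus strand). A match to these letters is a description of the sequence and shows no binding.
Atp6v0b promoter window: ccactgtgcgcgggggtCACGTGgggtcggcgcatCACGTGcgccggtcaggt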

How the data were processed

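The authors deposited, per the file headers and the text beside the tables, expected counts, TPM and FPKM per gene and transcript in the column layout of RSEM (first program), each transcript's percent of its gene, and estimated counts and TPM per transcript in the column layout of kallisto (second program). The assembly was mm10 and the annotation M21. Program names, versions and strand use are not given in the sources used. Rows with a numeric name (26248) and spike-in rows (97) held 9 and 6.49 reads (2.31e-05% and 1.64e-05%) and were left out.

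Expected counts were left unrounded in the log2 ratios and shares, and were rounded for the scaling factors and the 95% intervals. No count test was run. Library sizes were scaled by TMM (edgeR 4.0.16, R 4.3.3; factors 1.005 and 0.995). Log2 ratios of replicate 1 over replicate 2 used a prior count of 0.5 over genes with a mean count of at least 10, with 95% Clopper-Pearson intervals. Shares were computed per library from TPM and averaged. Program ratios used a pseudocount of 0.1 TPM. Products were read from annotated coding sequences, and 12 members had counts that were not whole, as reads were shared with other genes. Other steps used Python 3.11.15, pandas 2.3.3, numpy 2.4.6 and scipy 1.17.1, and the ratio step was tested on simulated data. Members are named by class; full values go to the highest 3 and lowest of each class and to members past a threshold, and some members are counted but not reported here by name. The members and lists were chosen with earlier results of these data known. Strit1 and Meak7 matched no record. Alternatives were other scalings, minimums, prior and pseudocounts, TPM and FPKM ratios, expected counts, the second program, protein-coding transcripts only and each library alone. Reads carry no molecular identifiers and may be PCR copies, so intervals cover counting error only.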

Additional observations from a re-analysis of the deposited data

How the results depend on the processing

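The count of members past a 2-fold ratio between the libraries was 0 in 8 of 9 settings, and 2 with a minimum of 1 read in either library (Atp6v0d2 and Atp6v1g3, with at most 2 reads). At an absolute log2 ratio of 0.5 it was 3, against 1 by TPM, 1 by FPKM and 7 with a minimum of 1 read. Atp6v0e was past it in every setting. No class median moved beyond the typical absolute ratio of all genes (0.19). That limit is wide, as it exceeds the absolute size of every class median but that of SPCA, so a change of sign can pass it. The PMCA median went from 0.003 to -0.005 under another scaling, and that of V1 from -0.02 to 0.02 by TPM. The SPCA median went from 0.36 to 0.17 in the second program. The counts of detected members (32) and of members that differ between programs (0) kept within 1.5-fold. By expected counts the leading members' shares were 84.0% for Atp1b1, 96.9% for Atp2a2, 63.2% for Atp2b1, 6.73% for Atp6v1f, 45.8% for Atp6v0c and 67.4% for Atp6ap2. In the second program they were 96.5% for Atp2a2, 18.6% for Atp6v1f and 52.2% for Atp6v0c. By reads per kilobase of the longest complete transcript, a choice made after seeing the data, they were 84.2% for Atp1b1, 65.9% for Atp2b1, 99.3% for Atp2c1, 16.3% for Atp6v1f and 55.2% for Atp6v0c. Class shares by expected counts were 22.6% (alpha), 16.1% (beta), 1.19% (SERCA), 8.68% (PMCA), 0.825% (SPCA), 26.7% (V1), 20.6% (V0) and 3.42% (accessory). In the second program they were 13.5% (beta), 6.85% (PMCA), 32.5% (V1) and 31.7% (V0). By reads per kilobase they were 12.9% (alpha), 14.5% (beta), 0.494% (SERCA), 2.72% (PMCA), 0.342% (SPCA), 33.7% (V0) and 3.51% (accessory). The ratios of summed classes on other scales were also added after seeing the data. Expected counts carry no length correction, and reads per kilobase divide all reads of a gene by 1 long transcript. Shares in each library alone lie within 1 SD of the mean by construction. Leading transcript shares moved by more than 1 SD in 23 of 32 members in the second program and in 14 of 31 with protein-coding transcripts only. A ratio between libraries could not be computed with a library left out. No paired analysis was possible because the study has 1 group. The depth limits members under 10 reads (9 of 43), whose ratios were not used.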
